A study of Mus musculus with 12 samples.

Results

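The delta protocadherins are cell adhesion molecules of the cadherin superfamily whose genes stand alone in the genome, apart from the clustered alpha, beta and gamma protocadherins. Their transcripts were read here in the thalamus of newborn mice. The family was chosen with earlier results of these data known, so its counts of called genes are not an independent test. Its 10 genes Pcdh1, Pcdh7, Pcdh8, Pcdh9, Pcdh10, Pcdh11x, Pcdh17, Pcdh18, Pcdh19 and Pcdh20 were taken by matching their symbols to the Ensembl identifiers of the deposited count tables, with no filter on their levels. They are 10 of 55359 genes in the tables, and all 10 passed the filter on low counts among the 17501 genes tested. The 12 libraries came from the ventroposterior medial nucleus, the relay of facial touch to the cortex, dissected on postnatal day 0 from sections of 300 µm. The first group of 4 libraries, embWPC ALBSF, is the part of the nucleus that receives upper lip input (ALBSF), from pups with the condition that the labels call embWPC and do not spell out. The second group of 4, Ctrl PMBSF, is the part that receives whisker pad input (PMBSF) in control pups, and the third group of 4, Ctrl ALBSF, is the upper lip part in control pups. The labels used here give no strain, genotype or sex. Each library pooled 5 brains, so a replicate is a pool, and the tissue is bulk, in which fewer cells of a type and less RNA per cell cannot be told apart.

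A delta protocadherin has an extracellular part made of cadherin repeats, a single membrane span and a cytoplasmic tail. It binds its own kind on a facing cell weakly compared with classical cadherins, and neurons combine several members, so that the set on an axon helps it to sort with like axons and to find partners. Delta-1 members (Pcdh1, Pcdh7, Pcdh9 and Pcdh11x) carry a tail motif that docks protein phosphatase 1. Delta-2 members (Pcdh8, Pcdh10, Pcdh17, Pcdh18 and Pcdh19) have fewer extracellular repeats, and several of them bind the WAVE complex, which drives branched actin growth. Pcdh20 is set apart from both branches by its sequence. In the mouse forebrain, Pcdh10 is needed for the growth of striatal axons and for the path of thalamocortical axons.

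The promoter table used here, from RefSeq on GRCm38.p6, spans 250 bases before to 50 after each start and matched 8 of the 10 members. It had no entry for Pcdh1 and Pcdh11x, so their promoters were not examined. The promoters of Pcdh10 (chr3:45378148-45378447, plus strand) and Pcdh17 (chr14:84443313-84443612, plus strand) are shown as those of 2 delta-2 genes that both averaged lower in embWPC ALBSF and in Ctrl PMBSF than in Ctrl ALBSF. The delta-2 genes Pcdh8 and Pcdh18 also averaged lower in both, with smaller log2 differences, and are not shown. Pcdh10 was called (adjusted p under 0.05, edgeR) in both of these comparisons, and Pcdh17 in neither. Capitals mark CG pairs, and the sequences run 5′ to 3′.
Pcdh10: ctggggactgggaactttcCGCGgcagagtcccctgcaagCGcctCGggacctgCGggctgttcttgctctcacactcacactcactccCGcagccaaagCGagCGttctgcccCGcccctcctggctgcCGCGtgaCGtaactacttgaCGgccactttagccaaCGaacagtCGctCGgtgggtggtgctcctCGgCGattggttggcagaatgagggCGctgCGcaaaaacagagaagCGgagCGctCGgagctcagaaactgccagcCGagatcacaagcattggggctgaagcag
Pcdh17: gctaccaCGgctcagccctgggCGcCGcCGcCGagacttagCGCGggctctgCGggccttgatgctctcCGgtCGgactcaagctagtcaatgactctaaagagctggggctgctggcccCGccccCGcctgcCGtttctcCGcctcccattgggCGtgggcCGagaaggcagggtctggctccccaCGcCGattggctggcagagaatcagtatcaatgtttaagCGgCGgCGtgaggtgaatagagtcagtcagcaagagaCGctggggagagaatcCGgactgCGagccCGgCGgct
The Pcdh10 window holds 24 CG pairs with a GC content of 62.3%, and the Pcdh17 window holds 26 with a GC content of 65.0%. Of 32851 promoters of the same length, 20.0% hold at least as many CG pairs as Pcdh10 and 16.9% at least as many as Pcdh17, and the median promoter holds 7. The members range down to 4 CG pairs in Pcdh20. The half-site AGGTCA, read by nuclear receptors such as RORA, was searched on both strands and is in none of the 8 members' windows, and 16.3% of all promoters hold it. The E-box CANNTG is in 2 of the 8, Pcdh7 and Pcdh19, and in 72.3% of all promoters. These matches describe letters in these windows only.

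The genes lie on 5 chromosomes of GRCm39. Pcdh8 (14:80004215-80008752), Pcdh17 (14:84680965-84776442), Pcdh20 (14:88694835-88708832) and Pcdh9 (14:93250846-94128152) are on chromosome 14. Pcdh10 (3:45332833-45390058) and Pcdh18 (3:49697731-49711830) are on chromosome 3, and Pcdh11x (X:119199956-119820316) and Pcdh19 (X:132483609-132589819) are on the X chromosome. Pcdh7 (5:57875004-58290581) is on chromosome 5 and Pcdh1 (18:38318963-38345869) on chromosome 18. A shared feature is one very large coding exon, which holds between 2147 bases in Pcdh19 and 3174 bases in Pcdh7, out of coding lengths of 2856 in Pcdh20 to 4014 in Pcdh11x. The genes otherwise differ in extent, between 4538 bases for Pcdh8 and 877307 bases for Pcdh9. Exons of 7 members overlap an antisense long noncoding RNA gene. The longest overlap is 2540 bases for Pcdh7, that of Pcdh8 with 4930452G13Rik is 2108 of its 4538 bases, and that of Pcdh10 with 2610316D01Rik is 644 bases. No setting for strand is stated for the counting, so reads in these overlaps cannot be assigned to one strand.

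The dissected tissue was checked against markers of its cells. Slc17a6, the glutamate transporter of thalamic relay neurons, stood at 366 to 430 CPM (counts scaled to a common library size by TMM) in embWPC ALBSF, 349 to 404 in Ctrl PMBSF and 336 to 391 in Ctrl ALBSF. Gad2, a marker of GABAergic neurons, which the relay nucleus largely lacks at birth, stood at 1.14 to 6.10, 2.23 to 7.47 and 0.959 to 8.37 CPM in the same order of groups. Library totals lay between 28457046 and 34512840 counts. Xist, the RNA of the inactive X chromosome, was at or under 0.112 CPM in Ctrl PMBSF 2, Ctrl PMBSF 3 and Ctrl ALBSF 3. The Y-linked gene Ddx3y had no count in Ctrl ALBSF 2, so the pools differed in the sex of their pups.

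Per kilobase of annotated exon, Pcdh9 was the most abundant delta protocadherin and Pcdh20 the least. Averaged over the 12 libraries, the length-scaled level was 20.7 CPM per kb for Pcdh9, an adhesion molecule of forebrain neurons, 5.52 for Pcdh7 and 4.69 for Pcdh19, the gene mutated in a human X-linked epilepsy of girls. It was 2.97 for Pcdh11x, 2.49 for Pcdh18, 2.21 for Pcdh17 and 1.64 for Pcdh10. Pcdh1 had 0.856, Pcdh8 0.845 and Pcdh20 0.125 CPM per kb. Pcdh9 lay above Pcdh7 in 12 of 12 libraries with no overlap of their ranges, and Pcdh20 lay below Pcdh8 likewise. The other 7 neighbouring pairs in this order had overlapping ranges. Among them, Pcdh11x was above Pcdh18 in 6 of 12 libraries, and Pcdh1 above Pcdh8 in 8 of 12. On the exons of the canonical transcript alone the ends of the order were the same, while Pcdh11x at 9.21 CPM per kb came above Pcdh19 at 4.77, and Pcdh10 at 3.48 above Pcdh18 at 2.58, so the middle ranks depend on the length used.

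Pcdh9 made up 51.8% ± 1.27 (SD, n = 4) of the summed length-scaled level of the family in embWPC ALBSF, 50.7% ± 3.52 in Ctrl PMBSF and 45.5% ± 1.06 in Ctrl ALBSF. The share of Pcdh11x was 6.43% ± 0.777 in embWPC ALBSF, 4.70% ± 0.494 in Ctrl PMBSF and 9.67% ± 0.671 in Ctrl ALBSF, and that of Pcdh10 was 3.23% ± 0.101, 3.12% ± 0.386 and 5.27% ± 0.983. In Ctrl ALBSF, Pcdh11x reached 4.31 ± 0.594 CPM per kb, beside 4.54 ± 0.341 for Pcdh19. In Ctrl PMBSF it had 1.83 ± 0.113, below Pcdh18 with 2.23 ± 0.366. On canonical exons Pcdh11x had 5.69 CPM per kb in Ctrl PMBSF, above Pcdh18 with 2.31. In Ctrl ALBSF it had 13.4 on canonical exons, above Pcdh19 with 4.62, so these orders depend on the length used. Pcdh9 thus kept the first rank in each group, with a smaller share in Ctrl ALBSF, while middle ranks changed places by annotated exon length. No test was run on these shares. The summed CPM of the 10 genes was 464 ± 40.0 in embWPC ALBSF, 428 ± 33.7 in Ctrl PMBSF and 494 ± 37.6 in Ctrl ALBSF.

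**Figure D1:**
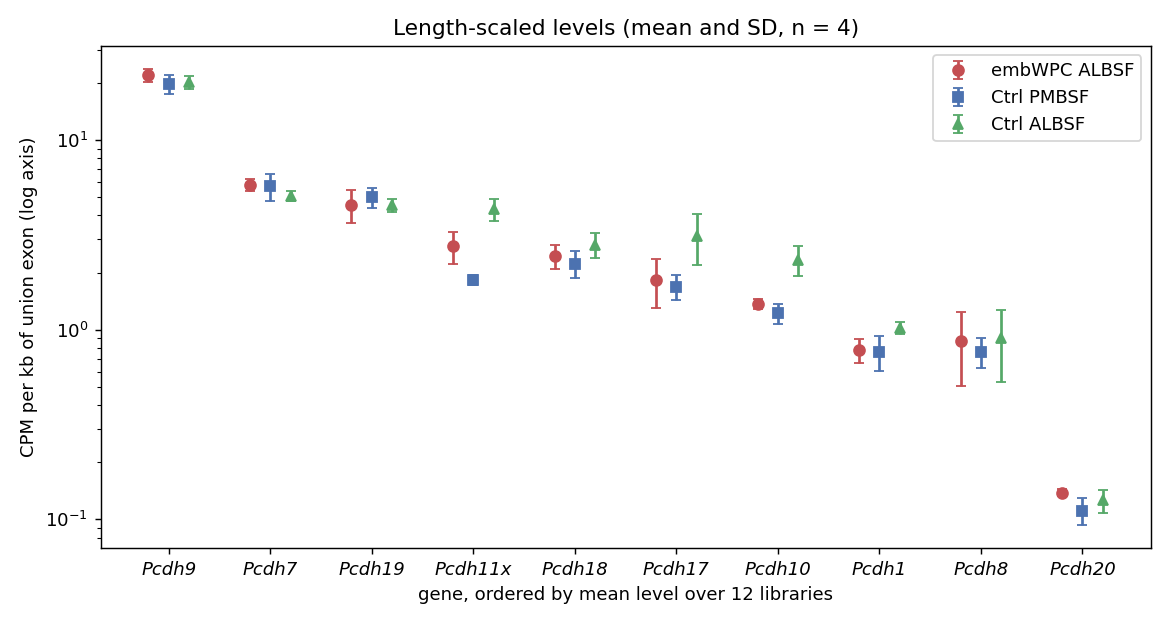
Level of each delta protocadherin in CPM per kb of annotated exon (log axis), as the mean and SD of 4 libraries for embWPC ALBSF (circles), Ctrl PMBSF (squares) and Ctrl ALBSF (triangles), ordered by the mean of all 12. Pcdh9 at 20.7 CPM per kb stands above the rest and Pcdh20 at 0.125 below it. Pcdh11x, Pcdh17 and Pcdh10 have their highest mean in Ctrl ALBSF, as do Pcdh1, Pcdh8 and Pcdh18.

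Between the 2 territories of control pups, the question is which genes tell whisker pad thalamus from upper lip thalamus at birth. Pcdh11x and Pcdh10 were lower in the whisker pad territory, by 2.35-fold and 1.92-fold, and these were the 2 of 10 members called. Of all genes tested, 1.62% were called, made up of 0.811% as lower and 0.811% as higher. Same-numbered libraries of these 2 groups were taken as paired, and a fit with the number as a block called 4 members and 857 genes. Pcdh11x, the delta-1 member on the X chromosome, which in humans also has a copy on the Y, had 27.1, 23.7, 26.1 and 24.4 CPM in the Ctrl PMBSF libraries 1 to 4, against 61.4, 63.8, 65.9 and 47.7 CPM in the Ctrl ALBSF libraries 1 to 4. The Ctrl PMBSF libraries lay close together and all below the lowest Ctrl ALBSF library, number 4. The means were 25.3 ± 1.57 CPM in Ctrl PMBSF and 59.7 ± 8.22 CPM in Ctrl ALBSF (SD, n = 4 each). The log2 difference was -1.24 ± 0.13 (SE; 95% interval -1.51 to -0.96), with an adjusted p of 0.000306 in edgeR's quasi-likelihood test with Benjamini-Hochberg adjustment over the 17501 genes.

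Pcdh10, the delta-2 member that binds the WAVE complex through NCKAP1, had 22.1, 18.0, 24.3 and 20.9 CPM in Ctrl PMBSF, against 30.3, 45.4, 45.8 and 42.0 CPM in Ctrl ALBSF. The groups did not overlap, and Ctrl ALBSF 1 was the control library nearest to the whisker pad values. The means were 21.3 ± 2.65 CPM in Ctrl PMBSF and 40.9 ± 7.27 CPM in Ctrl ALBSF (SD, n = 4 each), a log2 difference of -0.94 ± 0.12 (SE; 95% interval -1.20 to -0.67) with an edgeR adjusted p of 0.00176. The antisense RNA 2610316D01Rik, which shares 644 exonic bases with Pcdh10, had 3.62 to 6.29 CPM in Ctrl PMBSF and 6.81 to 7.54 CPM in Ctrl ALBSF. Its log2 difference was -0.63 ± 0.17 with an edgeR adjusted p of 0.0943. Both differences in Pcdh10 and Pcdh11x were called in all 16 other analyses of this comparison, with log2 values of -1.06 to -0.86 for Pcdh10 and -1.33 to -1.13 for Pcdh11x.

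Pcdh17, which recruits WAVE and related actin regulators to axon contacts in mice, had 24.3, 19.8, 25.4 and 18.8 CPM in Ctrl PMBSF, against 39.2, 53.6, 46.3 and 24.9 CPM in Ctrl ALBSF. Only Ctrl ALBSF 4, at 24.9 CPM, fell within the range of Ctrl PMBSF. The log2 difference was -0.89 ± 0.22 (SE, n = 4 per group), with an edgeR adjusted p of 0.0666. Without Ctrl ALBSF 4 it was -1.07 with an adjusted p of 0.0185, and with the replicate number as a block it was -0.85 with an adjusted p of 0.00280. Of 16 alternatives, 4 called Pcdh17, these 2, DESeq2 and the fit with no filter. In the other 12 it was not called, with -0.74 and an adjusted p of 0.258 with the meningeal term, -0.72 and 0.219 with the vascular term, -0.72 and 0.180 with the Y-linked term, and -0.74 and 0.204 without Ctrl ALBSF 2. Pcdh1, known in humans as an airway susceptibility gene for asthma, had 4.84 to 8.29 CPM in Ctrl PMBSF and 8.17 to 9.60 CPM in Ctrl ALBSF. Its log2 difference of -0.42 ± 0.15 had an edgeR adjusted p of 0.243, and with the replicate block it was -0.44 with an adjusted p of 0.0468. The block raised the count of called members to 4 of 10 and that of all genes to 857, against 284 without it.

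The other 6 members had edgeR adjusted p values of 0.353 or more in this comparison. With the replicate block these were 0.0688 or more, the smallest being that of Pcdh18. Pcdh18, which binds the Reelin adaptor DAB1, had 10.7 to 15.0 CPM in Ctrl PMBSF and 11.8 to 16.7 CPM in Ctrl ALBSF, a log2 difference of -0.33 ± 0.14 with a 95% interval of -0.63 to -0.03. Pcdh8, also called arcadlin, which neuronal activity induces and which draws N-cadherin from synapses, had a difference of -0.23 ± 0.31 and an interval of -0.89 to 0.42. The interval of Pcdh8 was the widest of the 10, with 2.76 to 4.21 CPM in Ctrl PMBSF and 2.12 to 6.22 CPM in Ctrl ALBSF. Its counts went down to 64 in a library, and Pcdh20, with counts down to 39, had a narrower interval. Pcdh19 had a difference of 0.13 ± 0.12, with 44.5 to 58.3 CPM in Ctrl PMBSF and 43.1 to 51.0 CPM in Ctrl ALBSF. Pcdh7 had 0.17 ± 0.10, Pcdh9 -0.02 ± 0.09 and Pcdh20 -0.18 ± 0.19. Of the 10 members, 8 had a log2 difference below 0, as had 49% of all genes, and 5 had an unadjusted p under 0.05, as had 11.8% of all genes. The groups did not overlap for 2 members, and for 8.28% of all genes. The median log2 difference was -0.28 over the members and 0.00 over all genes. By branch, 1 of 4 delta-1 and 1 of 5 delta-2 members were called, with branch medians of -0.22 and -0.33.

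**Figure D2:**
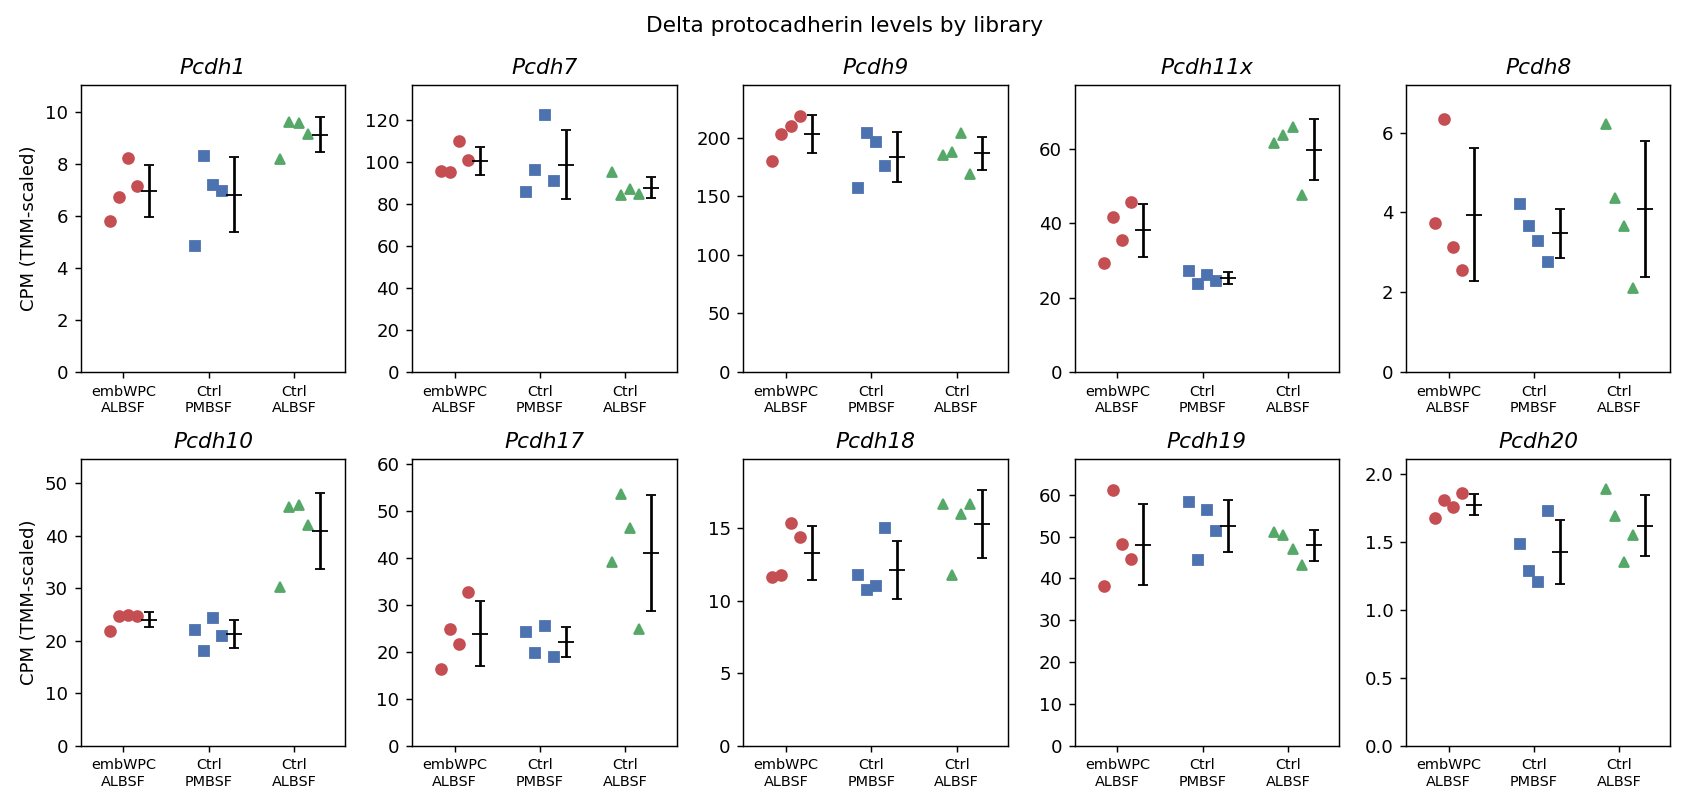
TMM-scaled CPM of each delta protocadherin in every library, with the mean and SD of 4 libraries drawn at the right of each group, in the order embWPC ALBSF (circles), Ctrl PMBSF (squares) and Ctrl ALBSF (triangles). Within a group the points run from library 1 to 4. Pcdh10 and Pcdh11x separate Ctrl ALBSF from the other groups with no overlap, and in Pcdh17 Ctrl ALBSF 4 at 24.9 CPM lies among them.

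The comparison of embWPC ALBSF with Ctrl ALBSF asks what embWPC changed in the upper lip territory. Pcdh10 was 1.70-fold lower in embWPC ALBSF and was the 1 of 10 members called, where 0.0629% of all genes were called (0.0457% as lower and 0.0171% as higher). Its libraries had 21.8, 24.7, 24.8 and 24.6 CPM in embWPC ALBSF, against 30.3, 45.4, 45.8 and 42.0 CPM in Ctrl ALBSF. The embWPC values lay close together and under every control value. The means were 24.0 ± 1.46 CPM in embWPC ALBSF and 40.9 ± 7.27 CPM in Ctrl ALBSF (SD, n = 4 each). The log2 difference was -0.77 ± 0.12 (SE; 95% interval -1.03 to -0.50), with an adjusted p of 0.0486 in edgeR's quasi-likelihood test with Benjamini-Hochberg adjustment, close to the threshold of 0.05. Of 16 other analyses, 6 called it, and its value ran from -0.88 to -0.71. The call ended when any 1 of 7 libraries was left out, namely Ctrl ALBSF 2, 3 or 4 or embWPC ALBSF 1, 2, 3 or 4, with adjusted p values of 0.0668 to 0.212. Without Ctrl ALBSF 1 it was 0.00275, with a term for the Y-linked genes 0.109 and with the replicate block 0.0955. The antisense RNA 2610316D01Rik had 3.46 to 4.87 CPM in embWPC ALBSF and 6.81 to 7.54 CPM in Ctrl ALBSF, a log2 difference of -0.72 ± 0.17 with an edgeR adjusted p of 0.139.

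Pcdh11x had 29.4, 41.7, 35.4 and 45.7 CPM in embWPC ALBSF, against 61.4, 63.8, 65.9 and 47.7 CPM in Ctrl ALBSF. The groups did not overlap, although embWPC ALBSF 4 and Ctrl ALBSF 4 stood close to each other. The means were 38.0 ± 7.18 and 59.7 ± 8.22 CPM, a log2 difference of -0.65 ± 0.13 (SE; 95% interval -0.92 to -0.38). The edgeR adjusted p was 0.0707, so it was not called, while DESeq2 gave an adjusted p of 0.00105. Of 16 alternatives, 2 called it, DESeq2 and the fit with no filter. The adjusted p was 0.323 with the replicate block and 0.210 with the Y-linked term, and leaving out 1 library gave 0.0655 to 0.270. Pcdh17 had 16.2, 24.9, 21.5 and 32.7 CPM in embWPC ALBSF, against 39.2, 53.6, 46.3 and 24.9 CPM in Ctrl ALBSF. Its groups overlapped in that Ctrl ALBSF 4 lay below embWPC ALBSF 4, and its difference of -0.78 ± 0.22 had an edgeR adjusted p of 0.250. DESeq2 gave Pcdh17 an adjusted p of 0.0408 and, with the fit with no filter, was 1 of 2 alternatives of 16 to call it, with adjusted p values of up to 0.550 among the rest.

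The other 7 members had edgeR adjusted p values of 0.459 or more against Ctrl ALBSF. Pcdh1 had 5.80 to 8.21 CPM in embWPC ALBSF and 8.17 to 9.60 CPM in Ctrl ALBSF, a log2 difference of -0.39 ± 0.15 with a 95% interval of -0.71 to -0.06. Pcdh7, whose tail binds the histone chaperone SET, had 95.3 to 110 CPM in embWPC ALBSF and 84.4 to 95.4 CPM in Ctrl ALBSF, with 0.20 ± 0.10. Pcdh9 had 181 to 219 CPM in embWPC ALBSF and 169 to 204 CPM in Ctrl ALBSF, with 0.12 ± 0.09. For Pcdh19 the log2 difference was 0.01 ± 0.12 (95% interval -0.26 to 0.27), with 38.1 to 61.2 CPM in embWPC ALBSF and 43.1 to 51.0 CPM in Ctrl ALBSF. The intervals of Pcdh7, Pcdh9 and Pcdh19 leave room for changes of up to 0.41, 0.32 and 0.27 upwards on this scale. Pcdh18 had -0.20 ± 0.14, Pcdh20 0.13 ± 0.18 and Pcdh8 -0.06 ± 0.31. Of the 10, 6 had a difference below 0 against 52.5% of all genes, and 4 had an unadjusted p under 0.05 against 9.22%. The groups did not overlap for 2 members, and for 5.74% of all genes. The median was -0.13 over the members and -0.01 over all genes. None of 4 delta-1 and 1 of 5 delta-2 members was called.

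**Figure D3:**
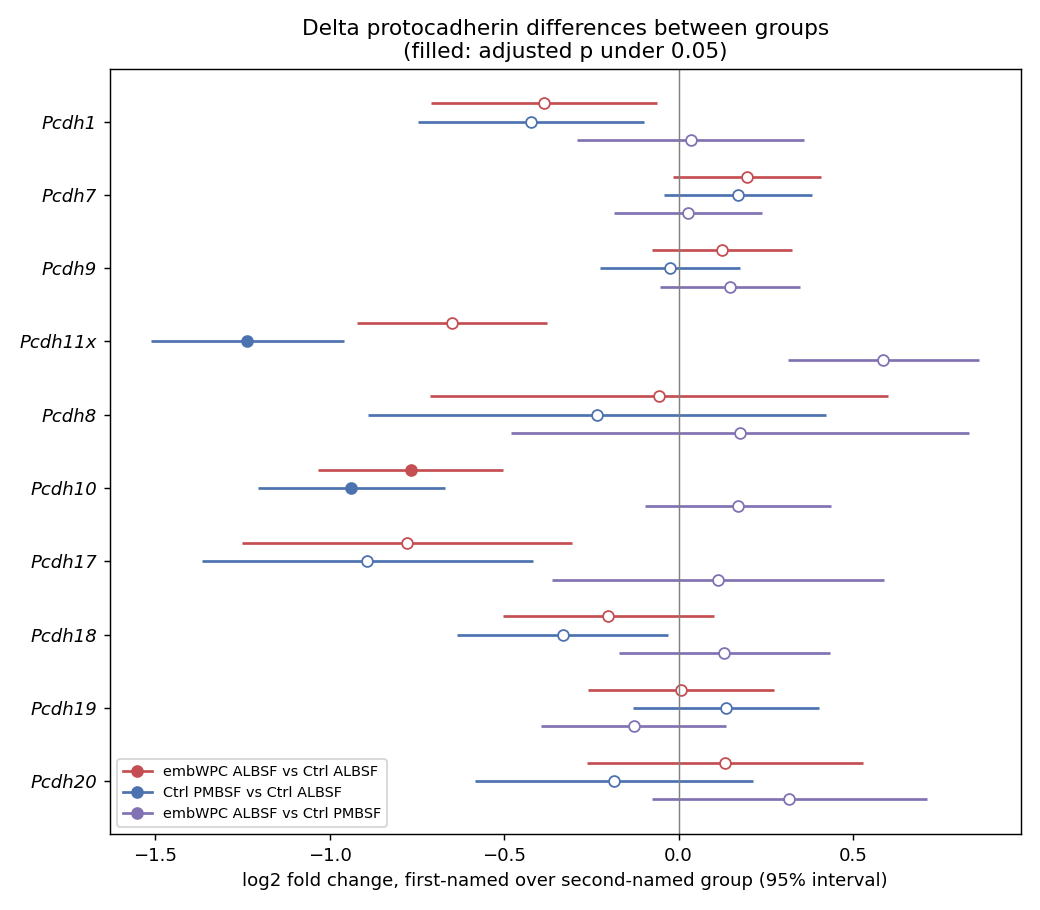
Log2 fold change of each delta protocadherin with its 95% interval from the edgeR fit, first-named group over second-named, for embWPC ALBSF vs Ctrl ALBSF, Ctrl PMBSF vs Ctrl ALBSF and embWPC ALBSF vs Ctrl PMBSF from top to bottom within a gene. Filled points have an adjusted p under 0.05, which are Pcdh11x at -1.24 and Pcdh10 at -0.94 between the control territories and Pcdh10 at -0.77 for embWPC.

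Both comparisons above share the 4 Ctrl ALBSF libraries, so a high or low value there enters both. Set directly against Ctrl PMBSF, embWPC ALBSF had no called member, where 0.00571% of all genes (1 gene) were called. These groups differ in territory and in condition, and there is no embWPC PMBSF group, so the part of each cannot be told apart. At an unadjusted p under 0.05, beside 9.47% of all genes, there was 1 member, Pcdh11x, and DESeq2 called the same 1. Pcdh11x had 29.4 to 45.7 CPM in embWPC ALBSF and 23.7 to 27.1 CPM in Ctrl PMBSF, with no overlap between the groups, as for 4.73% of all genes. Its log2 difference was 0.59 ± 0.13 (SE, n = 4 per group; 95% interval 0.31 to 0.86), with an edgeR adjusted p of 0.240 and a DESeq2 adjusted p of 0.0133. The fit with no filter was the other of 2 alternatives of 16 to call it, and the adjusted p reached 0.540 with the replicate block. Its embWPC ALBSF mean of 38.0 ± 7.18 CPM thus lay between 25.3 ± 1.57 CPM in Ctrl PMBSF and 59.7 ± 8.22 CPM in Ctrl ALBSF.

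Pcdh10 had 21.8 to 24.8 CPM in embWPC ALBSF and 18.0 to 24.3 CPM in Ctrl PMBSF, and these ranges overlapped. The log2 difference was 0.17 ± 0.12 with a 95% interval of -0.10 to 0.44 and an edgeR adjusted p of 0.688. Pcdh17 had 0.11 ± 0.22 with an interval of -0.36 to 0.59, which holds differences of up to 0.59 in its upper part. Of the 10 members, 9 had a difference above 0, the exception being Pcdh19 with -0.13 ± 0.12, and 53.4% of all genes had one below 0. The median was 0.14 over the members and -0.02 over all genes. Adjusted p values of the members other than Pcdh11x were 0.607 or more.

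Pcdh11x and Pcdh19 are X-linked, so their levels were set beside Xist in each library. In embWPC ALBSF, Xist stood at 7.41, 8.30, 23.1 and 36.6 CPM in the libraries 1 to 4, beside 29.4, 41.7, 35.4 and 45.7 CPM of Pcdh11x. In Ctrl PMBSF, the libraries 2 and 3 with Xist near 0 had 23.7 and 26.1 CPM of Pcdh11x, and the libraries 1 and 4 with Xist at 21.6 and 15.0 CPM had 27.1 and 24.4 CPM. In Ctrl ALBSF, Xist stood at 22.2, 68.7, 0.069 and 15.6 CPM in the libraries 1 to 4, beside 61.4, 63.8, 65.9 and 47.7 CPM of Pcdh11x. The Ctrl ALBSF library with Xist near 0 thus had the highest Pcdh11x of its group, and library 4, with Xist present, the lowest. In embWPC ALBSF the library with the lowest Xist had the lowest Pcdh11x, and that with the highest Xist the highest. The part of pup sex in these levels was not tested. Pcdh19 had 38.1, 61.2, 48.2 and 44.7 CPM in embWPC ALBSF, 58.3, 44.5, 56.2 and 51.2 CPM in Ctrl PMBSF, and 51.0, 50.3, 47.1 and 43.1 CPM in Ctrl ALBSF. The mean log2 CPM of the Y-linked genes was -3.73 in Ctrl ALBSF 2 and 2.30 to 4.44 in the other libraries. A term for them thus mainly sets that 1 library apart and cannot separate sex from its other traits. With the Y-linked genes as a term, the Pcdh11x difference between Ctrl PMBSF and Ctrl ALBSF was -1.19 ± 0.14, with an edgeR adjusted p of 0.00129. With the same term it was -0.60 ± 0.14 for embWPC ALBSF vs Ctrl ALBSF, with an edgeR adjusted p of 0.210, and 0.59 ± 0.13 for embWPC ALBSF vs Ctrl PMBSF, with an edgeR adjusted p of 0.336, neither of which is a call.

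**Figure D4:**
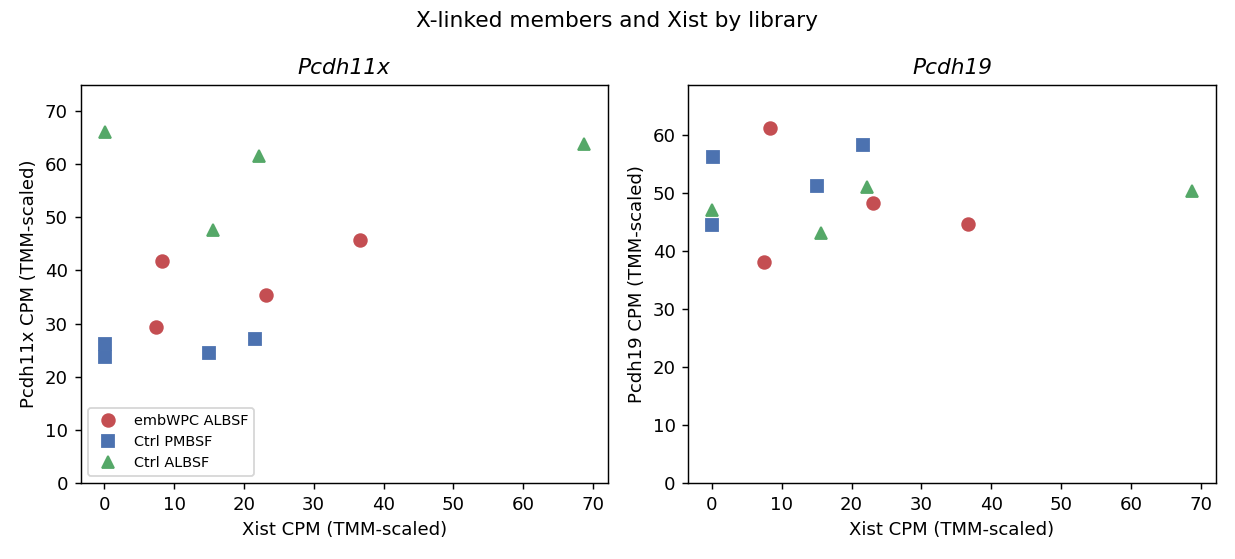
TMM-scaled CPM of the X-linked genes Pcdh11x (left) and Pcdh19 (right) against that of Xist, 1 point per library, for embWPC ALBSF (circles), Ctrl PMBSF (squares) and Ctrl ALBSF (triangles). For Pcdh11x the 4 Ctrl PMBSF points lie at 23.7 to 27.1 CPM and the 4 Ctrl ALBSF points at 47.7 to 65.9 CPM. Xist is near 0 in Ctrl PMBSF 2, Ctrl PMBSF 3 and Ctrl ALBSF 3.

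Markers of other cell types also took different levels in the 3 groups. All 11 meningeal fibroblast markers had higher values in Ctrl PMBSF than in Ctrl ALBSF (median log2 difference 1.44, 8 at an unadjusted p under 0.05, 0 called by edgeR and 1 by DESeq2) and lower values in embWPC ALBSF than in Ctrl ALBSF (median -0.76, 1 at an unadjusted p under 0.05, 0 called by either tool). In embWPC ALBSF vs Ctrl PMBSF all 11 were lower in value (median -1.99, 10 at an unadjusted p under 0.05, 0 called by edgeR and 6 by DESeq2). Their summed level was 13.4 to 16.8 CPM in embWPC ALBSF, 18.0 to 106 CPM in Ctrl PMBSF and 20.9 to 22.9 CPM in Ctrl ALBSF. With these markers as a term, the differences between Ctrl PMBSF and Ctrl ALBSF were -1.13 ± 0.17 for Pcdh11x and -0.87 ± 0.16 for Pcdh10, with edgeR adjusted p values of 0.00891 and 0.0293. Pcdh1 went from -0.42 to -0.73 ± 0.16 in this comparison, with an edgeR adjusted p of 0.0540. In embWPC ALBSF vs Ctrl ALBSF it went from -0.39 to -0.21 ± 0.14, with an edgeR adjusted p of 0.593. For embWPC ALBSF vs Ctrl PMBSF this term took Pcdh11x to 0.41 ± 0.21 (0.59 without it) and Pcdh1 to 0.52 ± 0.21 (0.04 without it), with edgeR adjusted p values of 0.373 and 0.263. The mean log2 CPM of these markers was -0.39 to 0.10 in embWPC ALBSF, 0.25 to 0.66 in Ctrl ALBSF and 0.39 to 2.81 in Ctrl PMBSF. The embWPC ALBSF range overlaps neither control range, so in comparisons with embWPC ALBSF the term and the group cannot be fully separated.

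For embWPC ALBSF vs Ctrl ALBSF, where Pcdh10 was called, edgeR called 0 markers of any list. All 6 erythroid markers tested had lower values in embWPC ALBSF (median log2 difference -0.71, 4 at an unadjusted p under 0.05, 1 called by DESeq2, the beta-globin gene Hbb-bs), with a summed level of 355 to 850 CPM in embWPC ALBSF and 847 to 1332 CPM in Ctrl ALBSF. All 7 microglial markers also had lower values (median -0.50, 1 at an unadjusted p under 0.05), and DESeq2 called 1, Aif1. Their summed level was 37.9 to 49.3 CPM in embWPC ALBSF and 43.9 to 70.9 CPM in Ctrl ALBSF. The 9 prethalamic and reticular GABAergic markers tested all had lower values (median -0.71, 1 at an unadjusted p under 0.05, 0 called by DESeq2), summing to 9.83 to 41.6 CPM in embWPC ALBSF and 6.41 to 64.6 CPM in Ctrl ALBSF. So had the 3 choroid plexus and ependymal markers (median -1.11, 2 at an unadjusted p under 0.05, 0 called by DESeq2), summing to 3.38 to 9.26 CPM in embWPC ALBSF and 3.34 to 101 CPM in Ctrl ALBSF. Of the 10 relay neuron markers, DESeq2 called Rora as higher and Lhx2 as lower. In Ctrl PMBSF vs Ctrl ALBSF all 6 erythroid (median -0.36), 7 microglial (-0.24) and 3 choroid plexus and ependymal markers (-1.03) had lower values too. Of the 9 GABAergic markers, 5 did (-0.12). Of 8 astrocyte and radial glia markers, 8 were lower in Ctrl PMBSF (-0.14) and 7 in embWPC ALBSF (-0.17) than in Ctrl ALBSF. Both tools called 0 of these in Ctrl PMBSF vs Ctrl ALBSF. The part of these cell types in the Pcdh10 difference was not tested.

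Among 10 relay neuron markers, the summed level was 2690 to 3071 CPM in embWPC ALBSF, 2440 to 2804 CPM in Ctrl PMBSF and 2694 to 3152 CPM in Ctrl ALBSF, and 3 were called between the control territories. Tcf7l2 had 681 CPM in Ctrl PMBSF and 1154 CPM in Ctrl ALBSF (log2 difference -0.76, edgeR adjusted p = 0.0301), Foxp2 102 and 189 CPM (-0.88, adjusted p = 0.00665) and Rora 651 and 498 CPM (0.39, adjusted p = 0.0436). Nwd2, the 1 of 4 habenular markers that passed the filter, had 13.8 CPM in Ctrl PMBSF and 25.8 CPM in Ctrl ALBSF (-0.90, adjusted p = 0.00275), and Gpr151 had no count in Ctrl ALBSF. The oligodendrocyte lineage gene Sox10 had 5.11 and 8.13 CPM (-0.67, adjusted p = 0.0189). Of the 7 markers of this lineage, 5 had lower and 2 higher values in Ctrl PMBSF (median -0.34, range -0.67 to 0.30). Among them 5 had an unadjusted p under 0.05, with 1 called by edgeR and 2 by DESeq2. The part of relay neuron subtypes, habenular cells or the oligodendrocyte lineage in the levels of Pcdh10 and Pcdh11x was not tested.

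The genes with the profile nearest to Pcdh10 across the 12 libraries were Robo1, a Slit receptor of growing axons, Thy1, a surface glycoprotein of neurons, Mgat4c, of a family of glycosyltransferases, Cdh22, a type II cadherin, and Npy1r, a neuropeptide Y receptor. Likeness was measured as the root mean square difference of log2 CPM after each gene's own mean was taken off, over 12659 genes. It was 0.164 for Robo1, 0.174 for Thy1, 0.178 for Mgat4c, 0.183 for Cdh22 and 0.195 for Npy1r, beside a median of 0.471 over the genes. Nearest to Pcdh11x were Inhbb, an activin subunit, at 0.137, the type II cadherin Cdh10 at 0.207, the actin-binding Synpo2 at 0.214, the latrophilin Adgrl2 at 0.225 and Robo1 at 0.228, beside a median of 0.560. Robo1 is thus among the 5 nearest of both. Pcdh10 and Pcdh11x differed by 0.270 from each other, and Pcdh17 differed by 0.319 from Pcdh10 and by 0.275 from Pcdh11x. Pcdh7 at 0.526, Pcdh8 at 0.633, Pcdh19 at 0.489 and Pcdh20 at 0.475 were farther from Pcdh10 than the median gene. All libraries here enter the groups compared above, so these distances describe the same differences between groups.

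**Figure D5:**
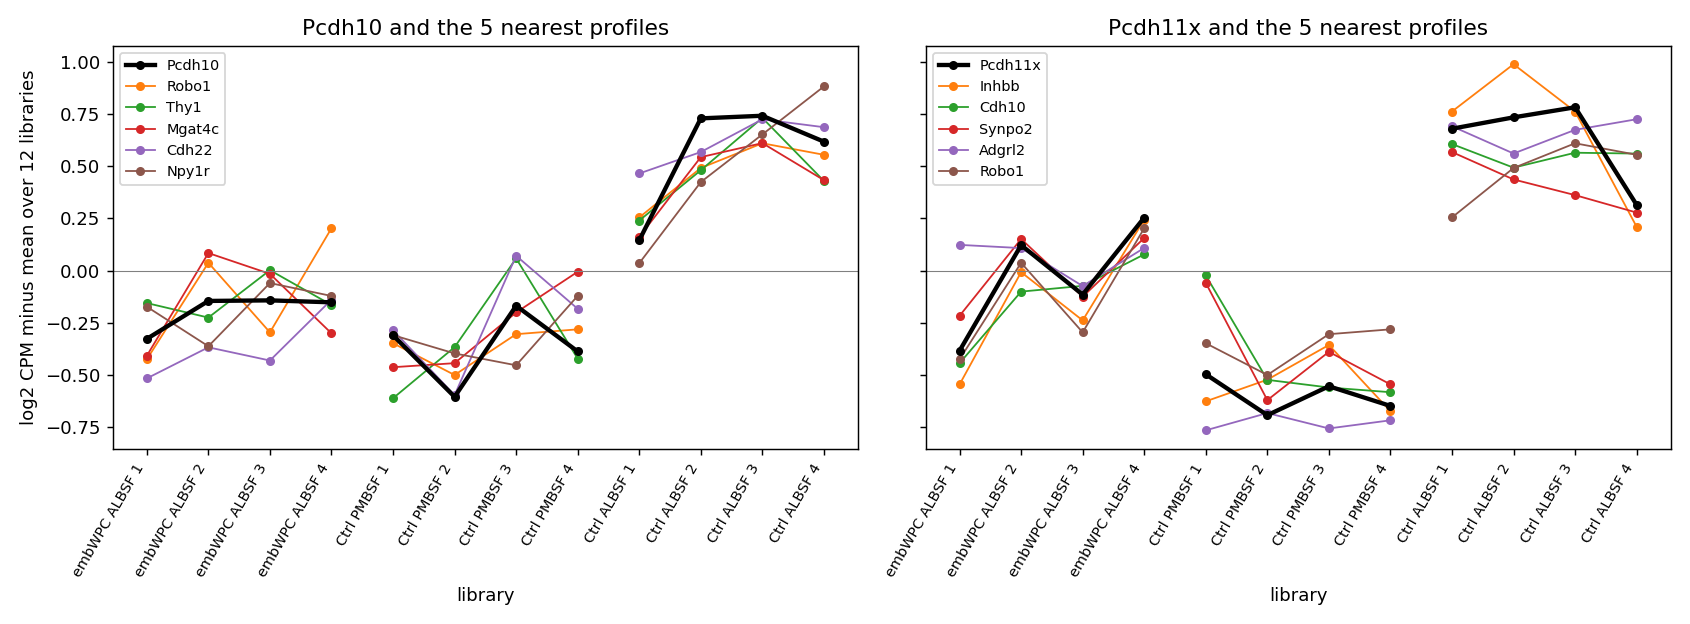
Log2 CPM minus the gene's mean over the 12 libraries for Pcdh10 (left, black) and Pcdh11x (right, black) and the 5 genes nearest to each, library by library; lines join libraries of a group only and have no order. The genes have their highest values in Ctrl ALBSF, with Pcdh10 near its embWPC ALBSF values in Ctrl PMBSF and Pcdh11x lower in Ctrl PMBSF than in embWPC ALBSF.

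Genes of the proteins that delta protocadherin tails bind gave no call for the WAVE complex or for phosphatase 1. Of 9 WAVE complex genes, edgeR and DESeq2 called 0 in each of the 3 comparisons, with 0 at an unadjusted p under 0.05 for embWPC ALBSF vs Ctrl ALBSF, 1 for Ctrl PMBSF vs Ctrl ALBSF and 1 for embWPC ALBSF vs Ctrl PMBSF. The smallest p of the first was that of Wasf2, with 5.02 ± 0.613 CPM in embWPC ALBSF and 6.04 ± 0.275 CPM in Ctrl ALBSF and an edgeR adjusted p of 0.557. In both others it was Wasf1, the neuronal WAVE protein, with 292 ± 20.9 CPM in embWPC ALBSF, 229 ± 23.3 CPM in Ctrl PMBSF and 282 ± 30.0 CPM in Ctrl ALBSF. Its edgeR adjusted p was 0.182 between Ctrl PMBSF and Ctrl ALBSF and 0.326 between embWPC ALBSF and Ctrl PMBSF. The median log2 difference of the 9 genes was 0.01, -0.11 and 0.14 in that order of comparisons.

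The 3 catalytic subunits of protein phosphatase 1 and SET gave 0 calls by either tool and 0 genes at an unadjusted p under 0.05 in each comparison, with log2 differences between -0.07 and 0.11. The smallest p was that of Ppp1cc, an alternative catalytic subunit, in both comparisons with Ctrl ALBSF (0.07 ± 0.07 for embWPC ALBSF and 0.08 ± 0.07 for Ctrl PMBSF), and that of Ppp1cb between embWPC ALBSF and Ctrl PMBSF (0.11 ± 0.09). Of 11 other reported partners, both tools called 0 in each comparison, with 2, 3 and 0 at an unadjusted p under 0.05 in the order embWPC ALBSF vs Ctrl ALBSF, Ctrl PMBSF vs Ctrl ALBSF and embWPC ALBSF vs Ctrl PMBSF. Cdh2, the classical N-cadherin that Pcdh8 and Pcdh19 bind, had 81.2 ± 7.88 CPM in embWPC ALBSF, 82.0 ± 4.13 CPM in Ctrl PMBSF and 68.8 ± 3.11 CPM in Ctrl ALBSF. Its log2 difference to Ctrl ALBSF was 0.24 ± 0.07 for embWPC ALBSF and 0.25 ± 0.07 for Ctrl PMBSF, with edgeR adjusted p values of 0.302 and 0.135 and no overlap with the Ctrl ALBSF libraries. Between embWPC ALBSF and Ctrl PMBSF the smallest p among them was that of Taok2, the kinase that acts with Pcdh8, at 0.27 ± 0.14 and an adjusted p of 0.574.

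Among 12 other large cadherin superfamily genes, 11 passed the filter, and 1 was called in 1 comparison by edgeR and by DESeq2. Fat3, a giant cadherin of neuronal processes, was lower in Ctrl PMBSF with 35.1 ± 4.92 CPM than in Ctrl ALBSF with 49.9 ± 5.19 CPM, a log2 difference of -0.51 ± 0.10 with an edgeR adjusted p of 0.0189. In embWPC ALBSF it had 42.0 ± 2.61 CPM, a difference of -0.25 ± 0.10 to Ctrl ALBSF with an adjusted p of 0.478 and of 0.26 ± 0.10 to Ctrl PMBSF with an adjusted p of 0.465. The median of the 11 genes was -0.11 for embWPC ALBSF vs Ctrl ALBSF, -0.12 for Ctrl PMBSF vs Ctrl ALBSF and 0.02 for embWPC ALBSF vs Ctrl PMBSF.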

How the data were processed

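The authors deposited raw counts per Ensembl gene in 1 table per library. Alignment used STAR 2.7.9a and GRCm39, and gene counting used featureCounts (Subread 2.0.1) with Ensembl release 104, both per the submitters' processing notes, which name FastQC 0.11.9 and SAMtools 1.15 too and list mm10 as a second build. The settings for strand and multiple alignments are not given in the sources used here. Symbols, positions and exon lengths came from GENCODE mouse release 39.

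All 12 libraries were fitted together with edgeR 4.0.16 (R 4.3.3) by the quasi-likelihood test, with group as the only term, after filterByExpr and TMM scaling, which left 17501 genes with a biological coefficient of variation of 15.8%. Benjamini-Hochberg adjustment ran over all genes tested, with calls under 0.05. CPM values are TMM-scaled, and log2 CPM used a prior count of 2. DESeq2 1.42.0, RLE scaling, no filter, the 2 groups alone, a replicate block, 3 marker covariates and leaving out each library were tried as alternatives. No 2 libraries agreed within sampling noise (chi-square per degree of freedom of 12.2 or more). P values measure the spread between pools.

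Library numbers are shared between groups. Deviations from group means correlated over genes at 0.198 to 0.396 for same-numbered Ctrl PMBSF and Ctrl ALBSF libraries, so by the rule used (every pair over 0.1) these numbers were taken to pair the libraries. The calls reported still come from the fit without a block, and the blocked value stands beside a result where it changes the call. Xist and Y-linked genes differed within number 2. Xist stood at 68.7 CPM in Ctrl ALBSF 2 and 0.0614 CPM in Ctrl PMBSF 2, and Ddx3y at 0 and 34.6 CPM. These 2 pools thus did not hold the same set of pups.

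Every member is named. From each list of related genes, the called genes or, with none called, the one with the smallest p are named, and the 5 nearest profiles had a mean of at least 1 CPM and a symbol that is no Gm number, Rik name or pseudogene. Marker genes that were called are also named, and Hbb-bs, Aif1, Lhx2 and, for embWPC ALBSF, Rora were named after their values were seen. The members and lists were chosen with earlier results of these data known.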

Additional observations from a re-analysis of the deposited data

Results flagged for a closer look

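In the group of 4 embWPC ALBSF libraries, Pcdh10 in library 1 stood apart at 21.8 CPM, below 24.6 to 24.8 CPM in the other 3. This library was also the lowest of its group for 8 of the 10 delta protocadherins. Without it, the Pcdh10 difference to Ctrl ALBSF was -0.72 on the log2 scale, with an edgeR adjusted p of 0.127. In Ctrl ALBSF, Pcdh18 in library 2 stood apart at 11.8 CPM, below 15.9 to 16.7 CPM in the other 3. A library was looked for in this way in 30 sets of 4 (10 genes in 3 groups), and chance marks about 1 set in 20.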

How the results depend on the processing

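Each comparison was repeated under 16 alternatives, 8 of which left out 1 library. Of 480 alternative values of single members, 437 kept their direction and side of the threshold, 10 lost the call, 11 gained one and 22 changed sign, none of these with an adjusted p under 0.05. For embWPC ALBSF vs Ctrl ALBSF, 1 member and 11 genes were called. DESeq2 called 3 members and 181 genes, no filter 3 and 121, the 2 groups alone 0 members, the replicate block 0 members and 1 gene, the Y-linked covariate 0 members and 4 genes, the meningeal covariate 25 genes and the vascular covariate 20. Leaving out 1 library gave 0 to 1 members and 1 to 22 genes (22 without Ctrl ALBSF 1, and 1 to 4 without Ctrl ALBSF 2, 3 or 4 or embWPC ALBSF 1 or 3). For Ctrl PMBSF vs Ctrl ALBSF, 2 members and 284 genes were called. The replicate block called 4 members and 857 genes (413 higher), DESeq2 527 genes and the Y-linked covariate 173, and leaving out 1 library gave 2 to 3 members and 127 to 249 genes (127 to 163 without Ctrl ALBSF 2, 3 or 4 or Ctrl PMBSF 2). For embWPC ALBSF vs Ctrl PMBSF, 0 members and 1 gene were called. DESeq2 called 1 member and 74 genes, no filter 1 and 72, the meningeal covariate 6 genes, the vascular covariate 3 and the replicate block 0, and leaving out 1 library gave 0 members and 1 to 3 genes (3 without Ctrl PMBSF 1). The cause of these differences was not tested.

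For Pcdh10 in embWPC ALBSF vs Ctrl ALBSF, adjusted p was 0.0571 with the 2 groups alone, 0.0955 with the replicate block and 0.109 with the Y-linked covariate, beside 2.22e-05 with DESeq2, 0.000207 with no filter, 0.0462 with RLE scaling, 0.0410 with the meningeal and 0.0390 with the vascular covariate. The values that changed sign were of members not called. With the meningeal covariate, Pcdh19 was at -0.074 in embWPC ALBSF vs Ctrl ALBSF, and Pcdh17 at -0.13 and Pcdh18 at -0.086 in embWPC ALBSF vs Ctrl PMBSF. With the vascular covariate, Pcdh9 was at 0.039 in Ctrl PMBSF vs Ctrl ALBSF, and Pcdh1 at -0.024, Pcdh8 at -0.036 and Pcdh17 at -0.063 in embWPC ALBSF vs Ctrl PMBSF. Leaving out 1 library gave -0.38 to 0.23 for Pcdh8 and -0.13 to 0.10 for Pcdh19 in embWPC ALBSF vs Ctrl ALBSF, -0.45 to 0.042 for Pcdh8 and -0.080 to 0.036 for Pcdh9 in Ctrl PMBSF vs Ctrl ALBSF, and -0.087 to 0.14 for Pcdh1, -0.022 to 0.15 for Pcdh7, -0.15 to 0.35 for Pcdh8 and -0.070 to 0.26 for Pcdh17 in embWPC ALBSF vs Ctrl PMBSF.

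Same-numbered libraries of embWPC ALBSF correlated at -0.147 to 0.0376 with Ctrl ALBSF and at -0.104 to 0.0510 with Ctrl PMBSF, so they share only a number, and not every library correlated best with its own number. The replicate block changed no member call other than those of Pcdh10, Pcdh17 and Pcdh1 named above and among the results. Counts were lowest for Pcdh20, with 39 to 71 per library, and Pcdh8, with 64 to 196. Pcdh8 also varied between pools, at 3.94 ± 1.66 CPM in embWPC ALBSF and 4.09 ± 1.70 CPM in Ctrl ALBSF (SD, n = 4 each).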
